A study of Homo sapiens with 3 samples.

Results

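The ERBB receptors and their ligands were examined in SH-SY5Y, a human neuroblastoma cell line grown as adherent cultures with serum. The set holds the 4 receptor genes EGFR, ERBB2, ERBB3 and ERBB4, the neuregulin genes NRG1 to NRG4, and EGF and HBEGF, which encode ligands of EGFR. Members were found by matching the Ensembl identifiers of the deposited table to these symbols in GENCODE release 29, and all 10 were found among 60660 identifiers. The series holds 3 RNA-seq libraries, each from a separate flask of cells for which the labels name no treatment, as a single group with replicates 1, 2 and 3 and no second line. SH-SY5Y is a subclone from the tumour of 1 patient, so it is a model of 1 clone. The only replication behind the p-values is that of these 3 flasks. Values are FPKM (fragments per kilobase of transcript, relative to all mapped fragments), which allow genes of different length to be set side by side.

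ERBB proteins are receptor tyrosine kinases that signal as pairs. ERBB2 binds no known ligand and acts as the preferred partner of the other receptors, ERBB3 has a very weak kinase and relies on its partner, and EGFR and ERBB4 both bind ligand and have active kinases. Neuregulins bind ERBB3 and ERBB4, while EGF and HB-EGF, the product of HBEGF, bind EGFR, and HB-EGF also binds ERBB4. In the neural crest, from which neuroblastoma arises, the neuregulin 1 signal through ERBB2 and ERBB3 is best known for driving the Schwann cell lineage.

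ERBB2 had the highest level of the set, the neuregulin genes NRG2 and NRG1 followed, and EGF was listed at 0. The mean levels were ordered ERBB2 (11.1 FPKM), NRG2 (4.19), NRG1 (3.64), HBEGF (2.33), ERBB3 (1.70), EGFR (1.22), NRG3 (1.15), NRG4 (0.652), ERBB4 (0.645) and EGF. The first 3 places were the same in every library. Each level was tested against 1 FPKM with limma on log2(FPKM + 0.1), two-sided, with Benjamini-Hochberg adjustment over the 31736 genes that had a value above 0. The limma fit draws the variance of each gene towards that of all genes tested. Its SE and p-values therefore do not rest on the spread of that gene alone. ERBB2, NRG2, NRG1 and HBEGF were called above 1 FPKM, NRG4 was called below, and ERBB3, EGFR, NRG3 and ERBB4 were called neither. EGF had no value above 0 and was not tested, so 9 of 10 members entered the fit. These are 4 above and 1 below of 10 members. Of all genes tested 45.5% were called above and 43.7% below, and of protein-coding genes tested 70.6% were called above and 24.6% below. The median of the 10 members was 1.46 FPKM, beside 1.08 FPKM over all genes tested and 9.13 FPKM over protein-coding genes tested.

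**Figure D1:**
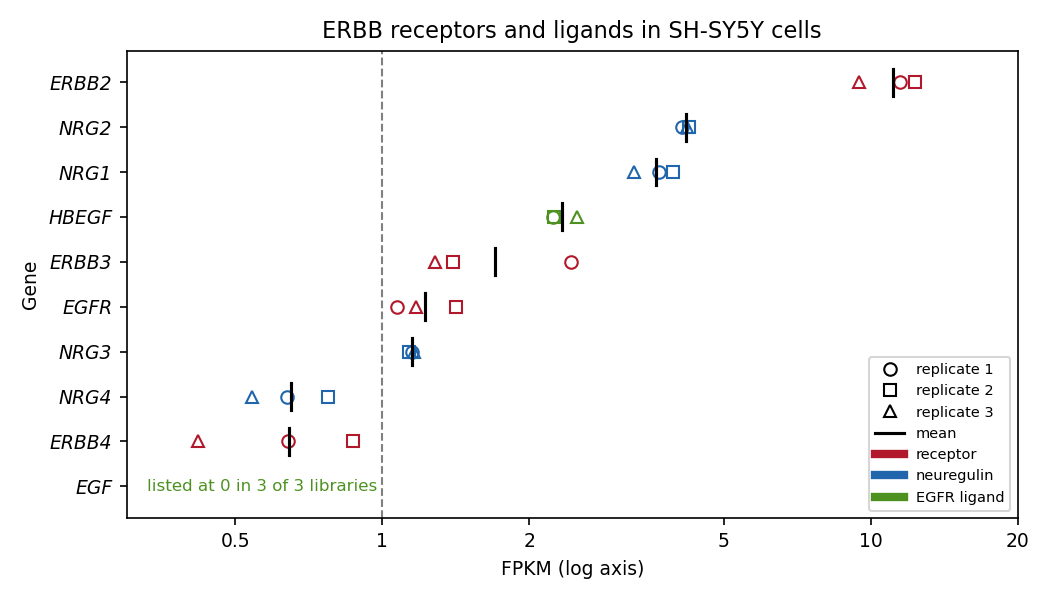
FPKM (log axis) of the 10 genes in each library, with open symbols for replicates and a black bar for the mean; the dashed line marks 1 FPKM. The 3 ERBB2 values lie between 9.48 and 12.3 FPKM, above every value of the other genes, and the ERBB3 value of replicate 1 (2.44) stands apart from the other two.

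The reads behind these levels were estimated from the steps of low values in genes with 1 annotated transcript. This gave about 21600000, 28500000 and 43500000 reads in replicates 1, 2 and 3, so that 1 FPKM stands for 21.6, 28.5 and 43.5 reads per kilobase. A floor of 3 reads on 1 kilobase corresponds to 0.139, 0.105 and 0.0690 FPKM and covers counting error only. ERBB4, the lowest member above 0 by its mean, though above NRG4 in replicates 1 and 2, rested on about 13.9, 24.9 and 18.3 reads per kilobase. The genes listed as markers of sympathoadrenal neuroblasts were in keeping with the label, and all 10 were called above 1 FPKM (median 329 FPKM). STMN2 (2405 ± 71.9 FPKM), which other neurons also express, and HAND2 (454 ± 9.18) were highest. HAND2 overlaps HAND2-AS1 (427 FPKM) on the other strand, so its level is uncertain as described below for ERBB2.

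Among the receptors, ERBB2 (Ensembl ENSG00000141736, chromosome 17, 39687914 to 39730426 on GRCh38) stood at 11.5, 12.3 and 9.48 FPKM in replicates 1, 2 and 3. All 3 values were above those of the other members in the same library. The mean of 11.1 ± 1.47 FPKM (SD, n = 3) lay 3.34 above the 1 FPKM level on the log2 scale (SE 0.109, limma adjusted p = 0.000108), and 60.7% of 19680 protein-coding genes had a lower mean. The SD of its log2 values was 0.195, against a median of 0.108 among 4638 protein-coding genes with a mean within a factor of 2. Of those genes 80.8% had a smaller SD. Exons of MIEN1, on the other strand, cover 571 of the 10321 exonic bases of ERBB2, and those of PGAP3 cover 194. MIEN1 stood at 43.0 ± 0.6005 FPKM and PGAP3 at 3.89 ± 0.704.

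Whether the authors' counting used the strand is not known from the labels. Of 173 genes that lie to at least 90% under exons of an opposite-strand gene of at least 20 FPKM, 10 were listed at 0, and the median of the 173 was 14.6% of the partner's level. The upper quartile was 45.7%, and 43 of the 173 reached at least 50% of the partner's level. Values of members with such partners, ERBB2 and NRG4 among them, are therefore uncertain by an amount that was not tested.

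ERBB3 (chromosome 12, 56076799 to 56103505), the kinase-impaired neuregulin receptor, stood at 2.44, 1.39 and 1.28 FPKM. Replicate 1 was the high library, 1.90 times the lowest. The SD of its log2 values was 0.478, against a median of 0.217 among 1643 protein-coding genes with a mean within a factor of 2 of it, and 86.55% of those genes had a smaller SD. The mean of 1.70 ± 0.638 FPKM was called neither above nor below (0.66 over 1 FPKM on the log2 scale, SE 0.225, limma adjusted p = 0.0614). AC034102.2, an annotated gene on the same strand, shares 31 exonic bases with ERBB3 and stood at 45.3, 51.2 and 53.1 FPKM, lowest in replicate 1.

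Since ERBB3 also marks Schwann cells and crest glia, 12 markers of those cells were set beside it, of which 3 were called above, 4 below and 3 were listed at 0. Without CNP and PMP22, which many cell types express, the other 10 summed to 8.21, 6.90 and 6.97 FPKM in replicates 1, 2 and 3. GFAP, a glial filament gene, was high in replicate 1 like ERBB3 (5.75, 2.96 and 2.14 FPKM), while S100B, another glial marker, was lowest there (1.10, 1.15 and 1.26 FPKM). The defining regulator SOX10 was listed at 0 in replicates 1 and 2 and stood at 0.034 FPKM in replicate 3, and FOXD3, CDH19 and FABP7 were at 0 throughout. The part of these markers in the ERBB3 values was not tested.

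EGFR (chromosome 7, 55019021 to 55211628), the receptor of EGF and HB-EGF, stood at 1.07, 1.42 and 1.18 FPKM. All 3 values lay above 1 FPKM, but the mean of 1.22 ± 0.178 FPKM was not called (0.26 over 1 FPKM on the log2 scale, SE 0.108, limma adjusted p = 0.0985). Its antisense gene EGFR-AS1, which shares 186 exonic bases with it, was at 0.0663 ± 0.0247 FPKM.

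ERBB4 (chromosome 2, 211375717 to 212538841), the neuregulin receptor with an active kinase, stood at 0.642, 0.872 and 0.420 FPKM. Every library lay below 1 FPKM, and the highest was 2.08 times the lowest. The mean of 0.645 ± 0.226 FPKM was called neither (log2 -0.61, SE 0.214, limma adjusted p = 0.0658). With a pseudocount of 1 the call became below, with a limma adjusted p of 0.0493, and likewise after rescaling to TPM (0.00978). Epithelial markers, taken since several ERBB genes are typical of epithelium, gave 1 of 10 called above, 4 below and 4 listed at 0, and summed to 3.63, 5.60 and 4.25 FPKM in replicates 1, 2 and 3. EPCAM (1.61 ± 0.643 FPKM, called neither) and CLDN4 (1.55 ± 0.323, the one called above) were highest. KRT5, KRT14, ESRP1 and GRHL2 were those at 0. The part of these markers in the ERBB values was not tested.

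Within libraries, ERBB2 exceeded ERBB3 by 2.68 ± 0.445, EGFR by 3.08 ± 0.203 and ERBB4 by 3.95 ± 0.263 (difference of log2(FPKM + 0.1), SD over 3 libraries), each in 3 of 3 libraries. The ratios of the mean levels were 6.51, 9.08 and 17.2. ERBB3 exceeded ERBB4 by 1.27 ± 0.590 and EGFR exceeded ERBB4 by 0.87 ± 0.371, again in 3 of 3. ERBB3 and EGFR were not separated: their difference of 0.40 ± 0.622 was smaller than its spread, ERBB3 was higher in 2 of 3 libraries, and without replicate 1 the difference was 0.05. With 3 libraries, an exact sign-flip test (two-sided) cannot fall below p = 0.25, which is 0.3 after adjustment over the 6 pairs. All pairs but ERBB3 and EGFR reached 0.25, and that pair gave exact p = 0.5, so no pair passed the threshold.

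**Figure D2:**
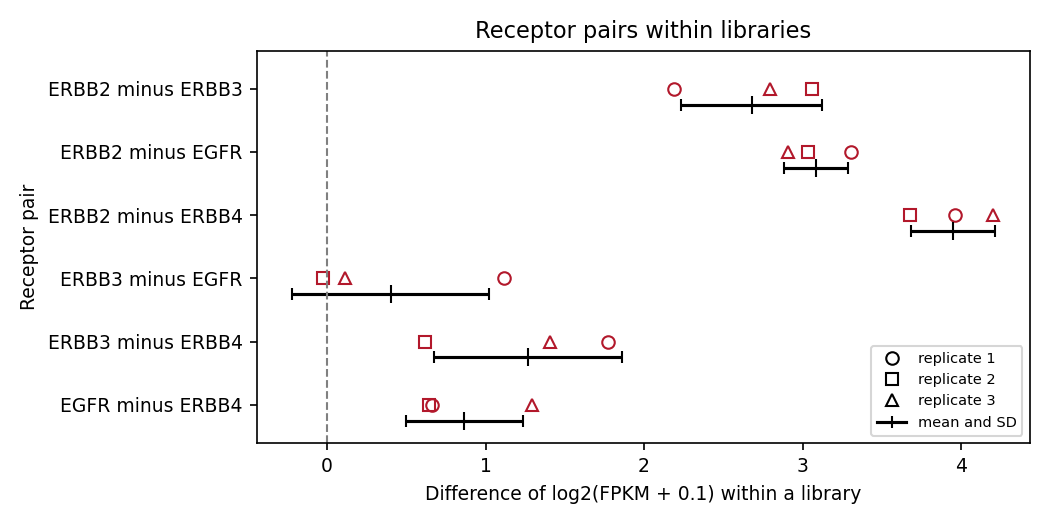
Difference of log2(FPKM + 0.1) between 2 receptors within each library (open symbols) with the mean and SD of the 3 differences (black bars). The 3 pairs with ERBB2 lie between 2.19 and 4.20, and the pair of ERBB3 and EGFR is the only one with a library on the other side of 0 (-0.02 in replicate 2).

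Of the summed receptor level of 15.6, 16.0 and 12.4 FPKM in replicates 1, 2 and 3, ERBB2 made up 73.45%, 77.0% and 76.7%. ERBB3 held 15.6%, 8.69% and 10.4%, EGFR 6.86%, 8.86% and 9.51%, and ERBB4 4.11%, 5.44% and 3.40%. Receptor RNA was thus mostly that of the receptor without a ligand of its own, in every library. The 2 neuregulin receptors ERBB3 and ERBB4 together stood at 3.08, 2.27 and 1.70 FPKM, with replicate 1 highest.

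**Figure D3:**
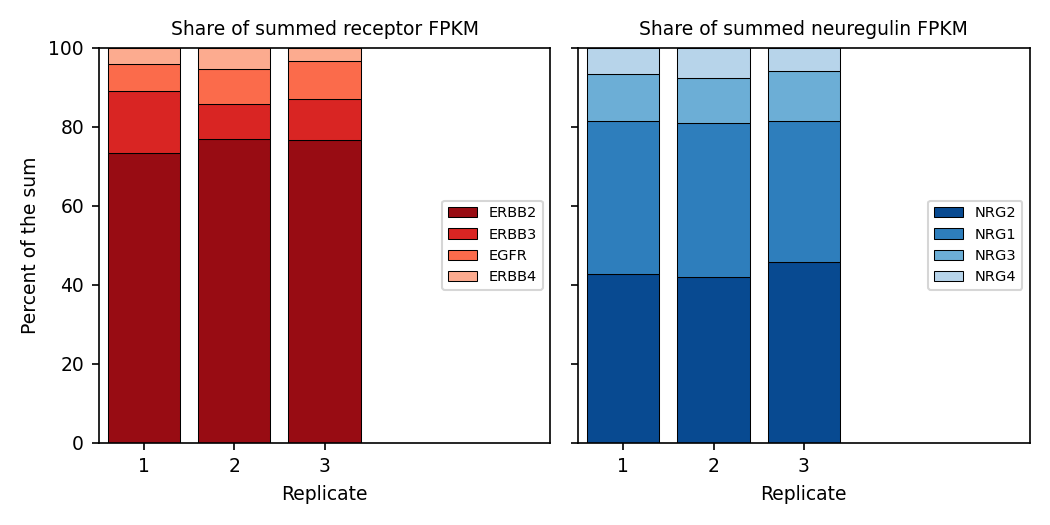
Share of each receptor gene in the summed FPKM of the 4 receptors (left) and of each neuregulin gene in the summed FPKM of the 4 neuregulins (right), in percent, for each replicate. ERBB2 takes 73.45% to 77.0% of the receptor sum, while NRG2 and NRG1 take 42.1% to 45.9% and 35.65% to 39.0% of the neuregulin sum.

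The neuregulin genes differed among themselves by more than their spread at most steps. NRG2 (chromosome 5, 139846779 to 140043299), the closest relative of NRG1, stood at 4.11, 4.25 and 4.22 FPKM. Its libraries were nearly level: the SD of the log2 values was 0.0248, and 3.54% of 2793 protein-coding genes at a similar mean had a smaller one. The mean of 4.19 ± 0.0737 FPKM was called above 1 FPKM (log2 1.96, SE 0.0655, limma adjusted p = 0.000114).

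NRG1 (chromosome 8, 31639386 to 32767959), the main Schwann cell growth signal of axons, stood at 3.69, 3.94 and 3.28 FPKM. Its mean of 3.64 ± 0.333 FPKM was called above 1 FPKM (log2 1.76, SE 0.0874, limma adjusted p = 0.000319). NRG2 exceeded NRG1 in 3 of 3 libraries, by 0.20 ± 0.131 on the log2 scale, a small step beside those to the other neuregulins.

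NRG3 (chromosome 10, 81875314 to 82987179), a ligand of ERBB4 known from the brain, stood at 1.15, 1.14 and 1.16 FPKM. These values lay closer together than those of any other member above 0, with a log2 SD of 0.0136, and 0.486% of 1439 protein-coding genes at a similar mean had a smaller one. The mean of 1.15 ± 0.0118 FPKM was not called (log2 0.18, SE 0.0648, limma adjusted p = 0.0666). This SE is larger than the log2 SD of NRG3 itself, since limma draws the variance towards that of all genes tested. The call changed with several settings, of which the filters also change the set of genes that share their variance. By limma, NRG3 was called above with a pseudocount of 1 (adjusted p = 0.0343), with no filter on low values (0.00116), with only genes of a mean of at least 0.1 FPKM (0.0466), and after rescaling to TPM over genes of at least 200 exonic bases (0.00877). It was called below after rescaling to TPM over all genes (log2 -0.26, limma adjusted p = 0.0317). NRG3-AS1, on the other strand with 78 shared exonic bases, varied more (1.05, 0.101 and 0.454 FPKM).

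NRG4 (chromosome 15, 75935969 to 76059795), also an ERBB4 ligand and known as a factor secreted by brown fat, stood at 0.639, 0.776 and 0.541 FPKM. All libraries lay below 1 FPKM, and the mean of 0.652 ± 0.118 FPKM was called below (log2 -0.56, SE 0.121, limma adjusted p = 0.0185). The call was lost without replicate 1 (0.0793) and without replicate 3 (0.0754). Exons of FBXO22 on the other strand, at 90.4 ± 1.825 FPKM, cover 1917 of the 5031 exonic bases of NRG4, so the value of NRG4 is uncertain.

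Together the neuregulins summed to 9.60, 10.1 and 9.19 FPKM. NRG2 made up 42.8%, 42.1% and 45.9% of the sum and NRG1 38.5%, 39.0% and 35.65%, so these 2 genes held most of the neuregulin RNA in each library. The sum was 3.12, 4.46 and 5.41 times that of ERBB3 and ERBB4, with replicate 1 lowest, where ERBB3 was high. Over the whole order of members, 4 of 8 steps between neighbours were larger than their SD and had 1 sign in 3 of 3 libraries: ERBB2 to NRG2 (1.38 ± 0.197), NRG2 to NRG1, NRG1 to HBEGF (0.62 ± 0.214) and NRG3 to NRG4 (0.74 ± 0.239). HBEGF and ERBB3, ERBB3 and EGFR, EGFR and NRG3, and NRG4 and ERBB4 (0.05 ± 0.231) did not differ beyond their spread. EGFR minus NRG3 turned to -0.04 without replicate 2, and NRG4 minus ERBB4 to -0.08 without replicate 3.

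HBEGF (chromosome 5, 140332843 to 140346631) encodes a heparin-binding ligand that is made as a membrane protein and cut free by ADAM proteases. It stood at 2.24, 2.25 and 2.51 FPKM, with replicate 3 slightly higher. The mean of 2.33 ± 0.150 FPKM was called above 1 FPKM (log2 1.14, SE 0.0757, limma adjusted p = 0.000695). HBEGF was 2.09, 1.59 and 2.13 times the level of its receptor gene EGFR in replicates 1, 2 and 3. EGF (chromosome 4, 109912884 to 110012266), the founding ligand of EGFR, was listed at 0 in all 3 libraries, and an estimate that failed and a gene without reads cannot be told apart at that value.

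Among the other 5 EGF family ligand genes, 2 were called below 1 FPKM and 3 were listed at 0. TGFA stood at 0.045, 0.137 and 0.091 FPKM and EREG, the epiregulin gene, at 0.010, 0.056 and 0.042 FPKM, and these were the 2 called below (limma adjusted p = 0.000740 and 0.000237). The amphiregulin gene AREG, the betacellulin gene BTC and EPGN were listed at 0. None of these 5 ligand genes was called above by limma. No p threshold could change that, since the 2 tested lay below 1 FPKM and the 3 at 0 were not tested. Of the 7 EGFR ligand genes, EGF and HBEGF included, HBEGF was the one called above 1 FPKM.

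The starts of the 2 EGFR ligand genes in the set differ in base composition, and both are shown for that reason. The 250 bases upstream of the RefSeq start (GRCh38.p14), 5′ to 3′ on the strand of the gene, are given with each CG pair in capitals.
HBEGF, chr5:140346604-140346853, minus strand: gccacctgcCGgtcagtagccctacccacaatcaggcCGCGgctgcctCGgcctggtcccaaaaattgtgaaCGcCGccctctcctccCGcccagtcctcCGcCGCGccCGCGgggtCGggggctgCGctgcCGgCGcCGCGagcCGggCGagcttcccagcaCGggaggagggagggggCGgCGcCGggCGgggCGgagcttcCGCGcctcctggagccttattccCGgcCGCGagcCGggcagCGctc
EGF, chr4:109912633-109912882, plus strand: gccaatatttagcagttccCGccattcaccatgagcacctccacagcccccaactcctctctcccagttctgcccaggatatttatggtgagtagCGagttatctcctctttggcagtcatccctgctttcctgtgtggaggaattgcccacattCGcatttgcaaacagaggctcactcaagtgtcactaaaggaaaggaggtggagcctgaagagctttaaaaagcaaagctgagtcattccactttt

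The HBEGF stretch holds 33 CG pairs and is 76.4% G or C, and the EGF stretch holds 3 and is 48.8%, while the median over 35116 annotated starts was 11 pairs and 58.0%. In all, 11 starts of 8 members were used. Starts on chromosome 8, where NRG1 lies, were left out, and ERBB3 had no entry in the promoter sequences. Among the others, NRG3 had 33 and 41 CG pairs at its starts, EGFR 25 and 1, ERBB2 23, NRG2 23 and 20, ERBB4 14 and NRG4 5. The GC box letters GGGCGG, searched on both strands and overlapping the CG count, stood at starts of HBEGF, NRG2, NRG3, ERBB4 and at 1 EGFR start, and at 42.6% of all starts. TATAAA, on either strand, stood at the second EGFR start and at that of NRG4 (10.7% of all starts), and CCAAT at those of ERBB2 and EGF (32.0%). As a description over protein-coding genes, 49.6% of 2471 genes with up to 4 CG pairs at their richest start were listed at 0 in all libraries, as were 2.76% of 7497 genes with at least 20. EGF belongs to the first class, and HBEGF, ERBB2, NRG2, NRG3 and EGFR to the second. In the classes between, of 5 to 9, 10 to 14 and 15 to 19 pairs, 25.1%, 9.63% and 5.54% were at 0. NRG4 falls in the class of 5 to 9 pairs and ERBB4 in that of 10 to 14. Whether base composition bears on the level of any member was not tested.

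Among 58 receptor tyrosine kinase genes, ERBB2 ranked at place 16, ERBB3 at 32, EGFR at 34 and ERBB4 at 38. In all, 32 of the 58 were called above 1 FPKM, 14 below and 6 neither, and 6 were listed at 0, with a median of 3.02 FPKM. ERBB2 stood between LMTK2 (12.0 ± 0.393 FPKM) and the Wnt receptor gene ROR1 (10.0 ± 0.660). ERBB3 lay between the ephrin receptor gene EPHA6 (2.32 ± 0.1997) and INSRR (1.38 ± 0.0542), a relative of the insulin receptor. EGFR lay between INSRR and FGFR3 (1.21 ± 0.276), and ERBB4 between the neurotrophin-3 receptor gene NTRK3 (1.09 ± 0.293) and EPHA1 (0.496 ± 0.0445). The highest of the list were RET (73.8 ± 7.12 FPKM), PTK7 (64.8 ± 1.32) and ALK (50.15 ± 1.22), a kinase gene that is mutated in part of neuroblastomas, while MUSK, EPHA4, EPHA5, EPHA7, ROS1 and STYK1 were those at 0. The mean of ERBB2, 11.1 FPKM, was below those of the leading kinases of these cells.

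**Figure D4:**
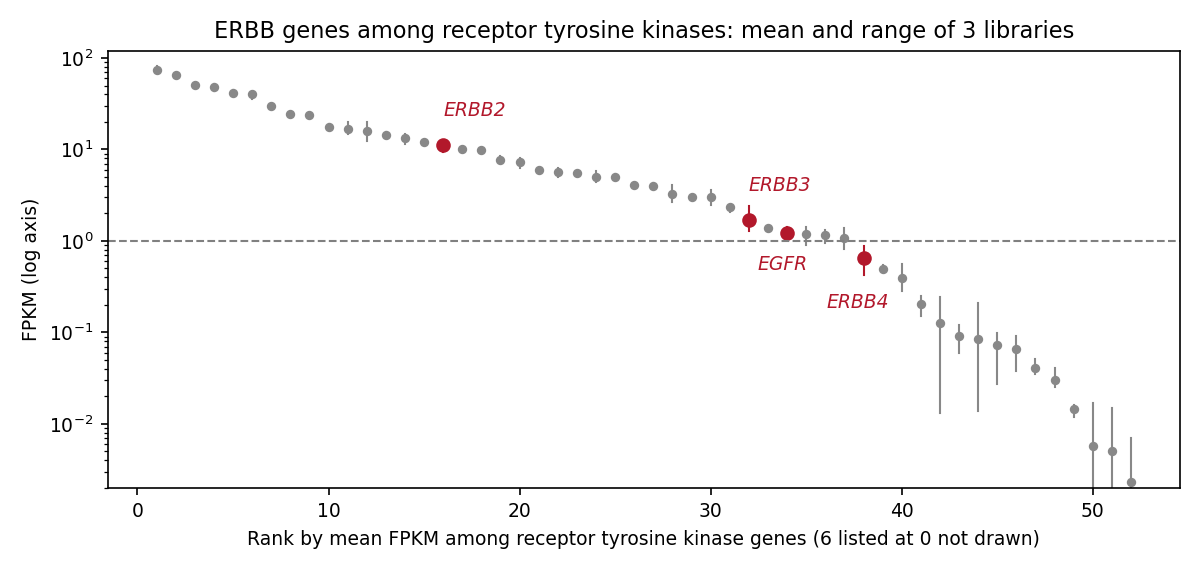
Mean FPKM (log axis, points) and range over 3 libraries (lines, cut at the lower edge where a library is at 0) of receptor tyrosine kinase genes in the order of their means; ERBB genes are red and the dashed line marks 1 FPKM. ERBB2 sits at place 16 of 58, and ERBB3, EGFR and ERBB4 at places 32, 34 and 38, where the means cross 1 FPKM.

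The genes that process ligands and carry the signal inside the cell were mostly well above 1 FPKM. Of 8 genes for ligand shedding 7 were called above and 1 neither (median 12.3 FPKM). ADAM10 (82.7 ± 1.98 FPKM) and ADAM17 (30.7 ± 0.211) encode the proteases best known for releasing EGF family ligands, and BACE1 (40.7 ± 2.09) encodes a protease that cuts neuregulin 1. The lowest was RHBDF1, a cofactor of ADAM17, at 0.934, 1.675 and 1.78 FPKM. ADAM17 overlaps IAH1 (95.0 FPKM) on the other strand and BACE1 overlaps RNF214 (25.8 FPKM), so both levels are uncertain as described for ERBB2.

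Genes for adaptors and their partners, recruited to phosphorylated ERBB tails directly or indirectly, gave 14 of 16 called above and none below (median 28.7 FPKM). SHC4 (0.943 ± 0.126 FPKM) was called neither. SHC4 overlaps EID1 (165 FPKM) on the other strand, so its level is uncertain too. SHC1 (335 ± 9.375 FPKM), PLCG1 (191 ± 10.2) and GRB2 (123 ± 13.97), which link receptors to RAS and to phospholipid signalling, were highest. GRB7, an adaptor that binds ERBB2 and whose gene follows ERBB2 on chromosome 17 (39737927 to 39747291), was listed at 0 in all libraries. So of these neighbours on chromosome 17, MIEN1, ERBB2 and PGAP3 (3.89 FPKM) had means above 1 FPKM and GRB7 was at 0. ERBB2 overlaps MIEN1 and PGAP3 on the other strand, so these levels are uncertain as described above.

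Of 14 negative regulators 12 were called above and 1 below (median 9.15 FPKM). The ERK phosphatase gene DUSP6 (61.9 ± 0.730 FPKM), the feedback inhibitor gene SPRY2 (40.1 ± 0.519) and RNF41 (29.4 ± 1.27), whose product is a ubiquitin ligase for ERBB3, were highest. CBLC was listed at 0, and LRIG3 (0.00233 ± 0.00404 FPKM) was called below. Of 11 genes for proteins that bind ERBB receptors or HB-EGF, 9 were called above and 1 below (median 22.5 FPKM). The chaperone genes HSP90AA1 (677 ± 64.1 FPKM), HSP90AB1 (669 ± 11.7) and CDC37 (160.4 ± 13.6), whose products stabilise ERBB2, were highest, and MUC4 (0.146 ± 0.0734), a membrane mucin gene whose product binds ERBB2, was lowest and called below.

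All 20 genes of the RAS-MAPK and PI3K-AKT core were called above 1 FPKM (median 29.9 FPKM), from MAP2K2 (195 ± 11.4) and AKT1 (152.5 ± 2.83) down to PIK3CB (10.2 ± 0.997). Every gene of this core but PIK3CB had a mean above that of ERBB2. These genes serve many receptors, and their levels say nothing of which receptor uses them. The counts of all these lists stand beside the 70.6% of protein-coding genes tested that were called above. That share leaves out genes listed at 0 in all libraries, while the list counts include them.

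**Figure D5:**
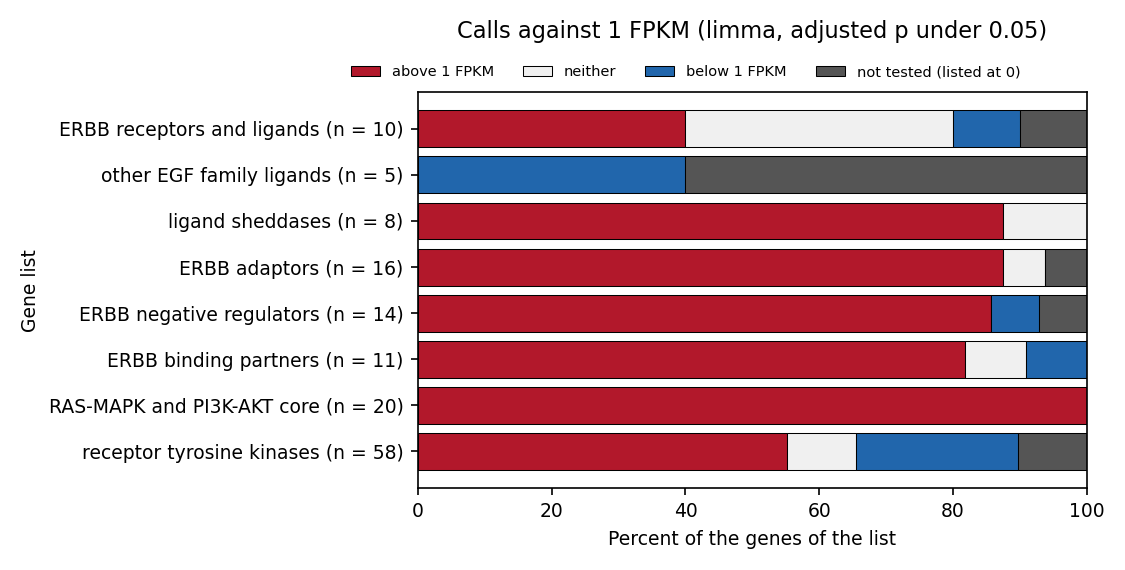
Percent of the genes of each list called above 1 FPKM, neither, below, or not tested since listed at 0 (limma, adjusted p under 0.05). The signalling lists are called above in 9 of 11 to 20 of 20 genes, against 4 of 10 ERBB receptors and ligands and 0 of 5 other EGF family ligands.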

How the data were processed

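RNA of 3 SH-SY5Y flasks at about 60% confluency was made into stranded mRNA libraries from 500 ng each and read as single reads of 50 bases, per the series' design text and the labels' protocols. TopHat2 2.1.1, Cufflinks 2.2.1, FastQC 0.10.1, bcl2fastq and hg38 are named in the submitters' processing notes, without their roles, and the annotation release and strand setting were not known. Per gene and library, the authors deposited 1 FPKM value, with no further normalization between libraries stated.

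Identifiers were matched to GENCODE 29 (GRCh38, the same assembly as hg38): 57046 of 60660 matched. Shared names took the identifier with the highest mean. Genes with a value in at least 2 libraries and above 0 in at least 1 were tested by an intercept-only fit of limma 3.58.1 (R 4.3.3; log2(FPKM + 0.1) against 1 FPKM, adjusted p under 0.05), a scale that understates the distance of low genes. A count model would not suit FPKM and was left out. The test was checked on simulated data with independent normal noise, which held no error in the FPKM scale. In depth estimates, 97.4% to 97.5% of low values lay within 0.1 of a whole read, with an assumed fragment of 200 bases. Promoter sequences are from RefSeq (GRCh38.p14). Other steps used Python 3.11.15.

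Named were all members, the other EGF family ligands, the 3 highest and the lowest gene of each list, the kinases next to each ERBB gene, overlapping genes of at least 1 FPKM, and cell type markers; SHC4, LRIG3 and antisense genes under 1 FPKM were added after their values were seen. A few genes that this rule names are not reported here. The members and lists were chosen with earlier results of these data known. Alternatives were other pseudocounts, rescalings, filters and levels, and each library left out.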

Additional observations from a re-analysis of the deposited data

How the results depend on the processing

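ERBB2, NRG2, NRG1 and HBEGF were called above 1 FPKM in every alternative at that level. The 4 members above became 7 with TPM over genes of at least 200 exonic bases (unmatched identifiers kept in the sum), 7 at a level of 0.5 FPKM and 1 at 5 FPKM, and 5 with a pseudocount of 1, with no filter and with a mean of at least 0.1 FPKM, NRG3 being the member gained, and stayed at 4 with each library left out. The 1 member below became 2 with a pseudocount of 1, 3 with TPM, 0 with TPM over the longer genes, 2 with no filter, 0 at 0.5 FPKM and 8 at 5 FPKM, and ranged from 0 to 1 with a library left out. TPM shifts all genes by log2 -0.54 to -0.46 and TPM over the longer genes by 0.24 to 0.25, which acts as another level. EGFR turned to log2 -0.19 and NRG3 to -0.26 with TPM. At 5 FPKM EGFR (-1.96), ERBB3 (-1.55), NRG1 (-0.45), NRG2 (-0.25), NRG3 (-2.03) and HBEGF (-1.07) lay below the level, and at 0.5 FPKM ERBB4 (0.27) and NRG4 (0.31) above it. Genes called below changed with the filter: other EGF family ligands from 2 to 5 with no filter and 0 at a mean of at least 0.1 FPKM, adaptors from 0 to 1 with TPM and with no filter, negative regulators from 1 to 2 with no filter, 0 with the mean filter and 0 to 1 with a library left out, and receptor tyrosine kinases from 14 to 4 with the mean filter. The step NRG3 to NRG4 was 0.38 with a pseudocount of 1. Of 140 list counts, all against 1 FPKM, 132 stayed within 1.5 times, and the lists were not counted at the levels of 0.5 and 5 FPKM. All 30 receptor pair differences kept their direction, that of ERBB3 and EGFR ranging from 0.05 to 0.62 with a library left out. With TPM over the longer genes EGFR (log2 0.49, limma adjusted p = 0.0222) and ERBB3 (0.89, 0.0302) were called above. A level of 1 FPKM rests on 21.6 to 43.5 estimated reads per kilobase. No paired analysis was possible because the series has a single group and so no replicates to pair between groups; receptor pairs were compared within libraries.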
